A study of Mus musculus with 32 samples.

Results

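The replication-dependent histone genes were the 68 rows, of 51826 in the gene count table, whose gene identifier maps to a symbol that starts with Hist1h, Hist2h, Hist3h or Hist4h. They comprised 6 genes for the linker histone H1, 20 for H2A, 17 for H2B, 12 for H3 and 13 for H4. The Hist1 cluster on chromosome 13 held 54 of them, the Hist2 cluster on chromosome 3 held 10, the Hist3 cluster on chromosome 11 held 3, and Hist4h4 lay alone on chromosome 6. RNA from mouse embryonic stem (ES) cells was sequenced in 32 libraries covering 11 conditions, with 3 libraries per condition except for Etv5-KO cells at N16h, which had 2. All cells derived from RGd2, a Rex1-GFPd2 reporter line that carries a destabilised GFP at the Rex1 (Zfp42) locus, and the unmodified RGd2 cells were the controls. RGd2 cells were sampled in 2i (the GSK3 inhibitor CHIRON, CHIR99021, with the MEK inhibitor PD0325901), in 2i after 5 passages (2ip5), in CHIRON alone after 2 passages (CHp2), and in N2B27 basal medium 16 h (N16h) and 72 h (N72h) after 2i withdrawal. Etv5-KO and Rbpj-KO cells were sampled in 2i and at N16h. Per the paper, cell lines were routinely kept in CHIRON with the cytokine LIF and moved into 2i shortly before assay. Cells lacking Etv5 and Rbpj (ER-dKO) were sampled in CHIRON alone at passage 5 (CHp5). Cells lacking Etv5, Tcf3 (gene symbol Tcf7l1) and Rbpj (ETR-tKO) were sampled in N2B27 at passage 5 (Np5). Each mutant library of a condition came from a different CRISPR/Cas9 clonal line, and each RGd2 condition comprised 2 libraries of the parental line and 1 of a clonal derivative. The line labels of ETR-tKO replicates 14 and 15, (Tc1)ERc2 and (Tc1)ERc10, share the prefix Tc1, while replicate 13 is (ETc1)Rc53. Replicates 14 and 15 may therefore not be independent of each other. The study describes its replicates as plated in parallel, so the p-values measure the spread between parallel platings and lines.

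Replication-dependent histone genes supply the histones that package newly made DNA. Their transcription is switched on as cells enter S phase, with the coactivator NPAT at nuclear histone locus bodies. Their mRNAs generally lack introns and end in a conserved stem-loop in place of a poly(A) tail. The stem-loop is bound by the protein SLBP, which acts in 3′ end processing, translation and decay of the mRNA. ES cells have a short G1 phase and spend much of their cycle in S phase. Histone genes outside this system (H1f0, the H2afy gene for macroH2A and others) are polyadenylated and made through the cycle. Because ribosomal RNA was depleted and no poly(A) selection was described in the protocol, transcripts without a tail could be counted. In bulk RNA, fewer cells in S phase and less histone RNA per cell cannot be told apart.

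The 16-base stem-loop is shown first because it defines the class. A match to the histone stem-loop consensus was present in annotated GENCODE M21 transcripts of 42 of the 68 genes, against 51 of 55450 genes (0.092%) in the whole annotation. Of the 26 genes with no match, 12 have annotated models that stop at the coding sequence, Hist1h2aa and Hist1h2ba among them, so that the end of the mRNA is outside the model. The most frequent forms are printed in capitals throughout, because every base belongs to the element, and they differ in the base pairs of the stem and in 1 base of the loop:
Form in 24 genes, among them Hist1h1c, Hist1h1d, Hist1h1e, Hist1h2bf and Hist3h2ba: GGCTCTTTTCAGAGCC
Form in 7 genes, among them Hist1h4d: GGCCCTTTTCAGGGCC
Form in 6 genes, among them the testis linker histone gene Hist1h1t: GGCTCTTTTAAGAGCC

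Promoter windows are shown for the 4 genes with the largest called changes, in absolute log2 fold change, among genes whose libraries did not overlap between groups. Lower-case sequence is from RefSeq (GRCm38.p6), printed 5′ to 3′ on the plus strand, and capitals mark every match on either strand to the CCAAT box (CCAAT or ATTGG), the octamer (ATTTGCAT or ATGCAAAT), the TATA box (TATAAA or TTTATA) or the H1 box (AAACACA or TGTGTTT). Hist1h2aa and Hist1h2ba, which encode the H2A and H2B variants abundant in testis and oocyte, are transcribed away from each other and share the 280 bases between their starts.
Hist1h2aa and Hist1h2ba, chr13:23934157-23934436: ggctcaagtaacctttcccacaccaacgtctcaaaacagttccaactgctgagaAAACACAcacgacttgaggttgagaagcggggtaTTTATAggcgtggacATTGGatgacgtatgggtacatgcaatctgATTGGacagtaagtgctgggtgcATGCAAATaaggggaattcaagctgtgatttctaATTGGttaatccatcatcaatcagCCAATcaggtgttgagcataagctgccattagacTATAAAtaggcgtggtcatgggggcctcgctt
Hist1h1t, 250 bases before the start, chr13:23695561-23695810: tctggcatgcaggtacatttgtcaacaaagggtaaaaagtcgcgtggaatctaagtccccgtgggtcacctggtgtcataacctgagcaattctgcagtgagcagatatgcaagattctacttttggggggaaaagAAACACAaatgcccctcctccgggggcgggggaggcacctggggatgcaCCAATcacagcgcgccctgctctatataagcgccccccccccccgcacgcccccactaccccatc
Hist3h2ba, 250 bases before the start, chr11:58948661-58948910: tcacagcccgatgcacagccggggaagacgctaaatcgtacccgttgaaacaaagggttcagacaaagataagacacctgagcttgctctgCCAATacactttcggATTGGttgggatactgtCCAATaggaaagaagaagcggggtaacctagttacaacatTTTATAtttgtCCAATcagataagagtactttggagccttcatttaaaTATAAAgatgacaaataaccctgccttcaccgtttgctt
The shared Hist1h2aa and Hist1h2ba window held 4 CCAAT boxes, 1 octamer, 2 TATA boxes and 1 H1 box. The Hist1h1t window held 1 CCAAT box and 1 H1 box, and the Hist3h2ba window held 4 CCAAT boxes and 2 TATA boxes. Over the 59 member promoters that matched the RefSeq table, 48 (81.4%) held a CCAAT box, against 33.9% of all 32851 promoters of the same length. The octamer was present in 12 member promoters (20.3% against 1.60% of all), the TATA box in 29 (49.2% against 12.4%) and the H1 box in 8 (13.6% against 6.25%). These matches describe letters in the window and do not show a bound site.

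Gene counts per library ranged from 5986857 to 71439411, with a median of 29940141. ERCC spike-ins, synthetic RNAs added to each sample, made up 0.991% to 1.52% of counts and set the scale of every comparison. RGd2 2i replicate 33 was the shallowest library and stood apart from replicates 31 and 32 in several histone genes. Its normalized count (the count divided by the spike-in size factor) was 4320.3 for Hist1h2al against 383 and 492 in the other RGd2 2i libraries, and 1898 for Hist1h2bb against 7497 and 5244. Its share of counts from Rpph1, the RNA of RNase P, was 0.0639% against 0.0040% and 0.0054%. RGd2 2i replicate 31 held the highest summed histone level of all libraries on the spike-in scale. The part of these differences in the results was not tested, and counts that move without either library are given beside each result. In Etv5-KO libraries the Etv5 normalized count was 2092 to 3373 against 11984 to 16791 in the matched RGd2 libraries. In Rbpj-KO libraries the Rbpj normalized count was 976 to 2797, below the matched RGd2 libraries, which held 3981 to 12766. In the library labelled ER-dKO CHp5 replicate 12 the Rbpj normalized count was 3489, above each of the RGd2 2ip5 libraries (2830.2, 3385 and 2854). Gene counts span the whole transcript, so they do not check whether the disrupted exons are intact. The naive and formative marker lists moved in the direction the RGd2 labels give: at N16h, 8 of 10 naive markers were lower and 6 of 6 formative markers were higher than in 2i.

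Of the 68 genes, 57 had a mean of at least 1 FPKM (the CPM, scaled to the total gene count of the library, divided by the gene's length in kilobases) in every condition, 5 in some conditions and 6 in none, including Hist2h2aa1 and Hist2h3c1, which had no count in any library. A count of 0 can arise from reads shared with a near-identical copy, because the authors counted unique matches only. In 35 genes fewer than 50% of the 50-base windows of the transcript were unique to the gene, so their levels relative to each other are uncertain. On their own strand, Hist2h2aa1 and Hist2h3c1 overlap Gm20634, Hist2h2bb overlaps Gm42743, Hist1h2be overlaps Gm11398 and Hist3h2a overlaps Trim17. Hist1h2aa overlaps Gm44344 on the opposite strand, and other H2A genes also have such an overlap, for example Hist1h2ak with Gm44454. The part of these overlaps in the counts was not tested. The median FPKM over the 68 genes was 221, against 6.81 over the 11588 genes with a mean FPKM of at least 1. The highest level per length belonged to Hist1h4d (chr13:23581598-23581990), an H4 gene with a mean of 2159 FPKM, followed by the linker histone gene Hist1h1a (chr13:23763717-23764358) with 1107 FPKM and the H2A gene Hist1h2ak with 796 FPKM. The next levels were Hist1h2bg (674 FPKM), Hist1h1d (639), Hist1h3c (630.1), Hist1h4k (609.9), Hist1h3g (597), Hist1h3e (550.3) and Hist1h2af (499). By counts rather than level per length, the 10 leading genes, a set that differs in part, held 48.7% of the histone counts. At the lower end, the testis genes Hist1h2aa, Hist1h1t and Hist1h2ba had means of 11.2, 5.69 and 5.28 FPKM, and Hist3h2ba, an H2B gene of the small Hist3 cluster, had 17.8 FPKM. Hist4h4 had 45.8 FPKM over a 2863-base model. Among H2B genes, Hist1h2bc had 278 FPKM and Hist2h2be 0.32 FPKM.

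**Figure D1:**
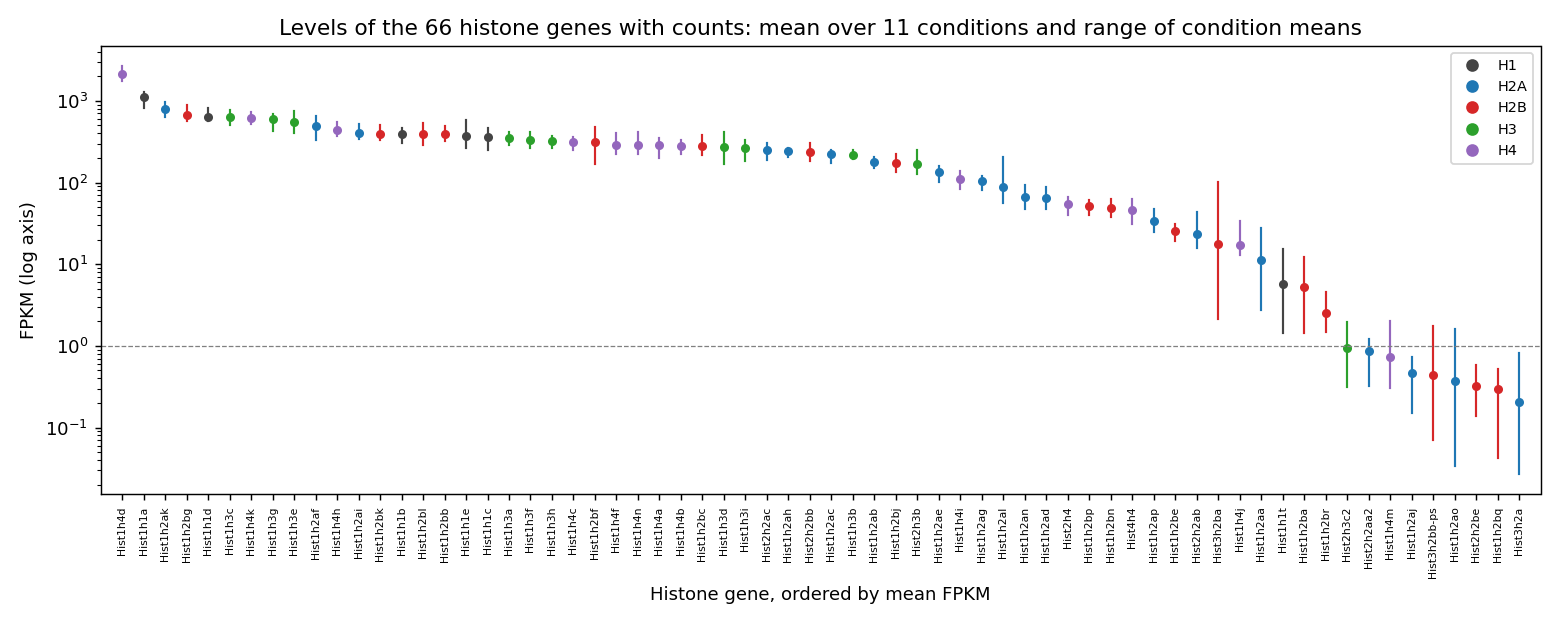
Mean FPKM (log axis) of the 66 histone genes with counts, ordered by level, with a vertical line from the lowest to the highest of the 11 condition means and colour by histone class. Most genes lie between 100 and 1000 FPKM with short lines, and the longest lines belong to genes near or below 20 FPKM such as Hist3h2ba, Hist1h2aa and Hist1h1t.

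Summed over all 68 genes, histone counts made up 0.788% to 1.12% of gene counts. As CPM the mean sum was lowest in Etv5-KO N16h (libraries at 8306 and 7883, a range also reached by ETR-tKO Np5 at 8305 and 8082 and by Etv5-KO 2i at 8115) and highest in RGd2 N72h (11214, 11081 and 10564). The N72h range was reached by libraries of 2 other conditions, RGd2 CHp2 (up to 10702) and Rbpj-KO N16h (up to 10674). On the spike-in scale the order changed. The sum was 309066, 252892 and 242616 normalized counts in RGd2 2i and 250298, 277516 and 250503 in RGd2 N72h, and these ranges overlapped. The Etv5-KO 2i libraries held 237458, 208244 and 210496, below each RGd2 2i library. The sums were not tested, because a few genes dominate them.

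**Figure D2:**
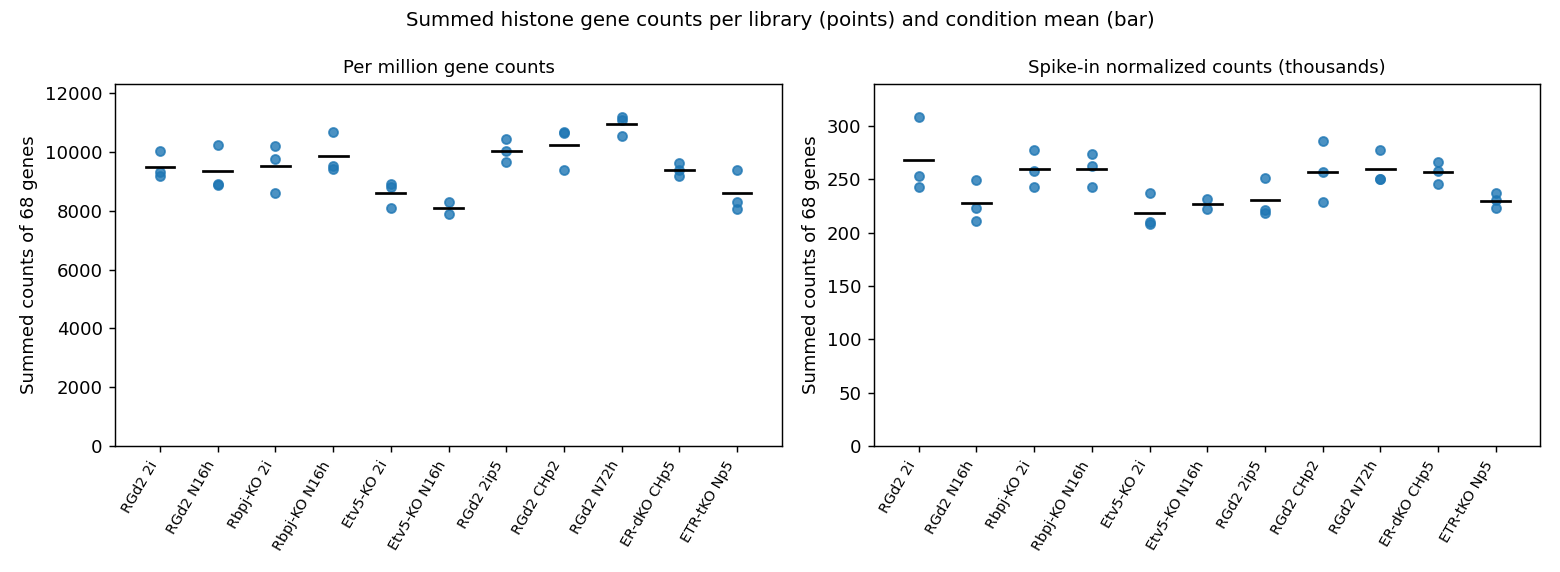
Summed counts of the 68 genes in each library (points) and the condition mean (bar), as CPM on the left and as spike-in normalized counts on the right, with both axes starting at 0. The RGd2 N72h mean is highest on the left (libraries from 10564 to 11214, a range reached by some RGd2 CHp2 and Rbpj-KO N16h libraries). RGd2 2i spans the widest range on the right (242616 to 309066).

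Differences were tested with edgeR's quasi-likelihood test across 18892 genes, and a gene is called when its Benjamini-Hochberg adjusted p was under 0.05 and its mean FPKM was at least 1 in either condition. Values given as ± are standard errors of the log2 fold change. Of the 10 pairwise comparisons, 5 use the RGd2 2ip5 libraries, 4 the RGd2 2i libraries and 3 the RGd2 N16h libraries, and both interactions use the RGd2 2i and N16h libraries, so their results are not independent of each other.

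**Figure D3:**
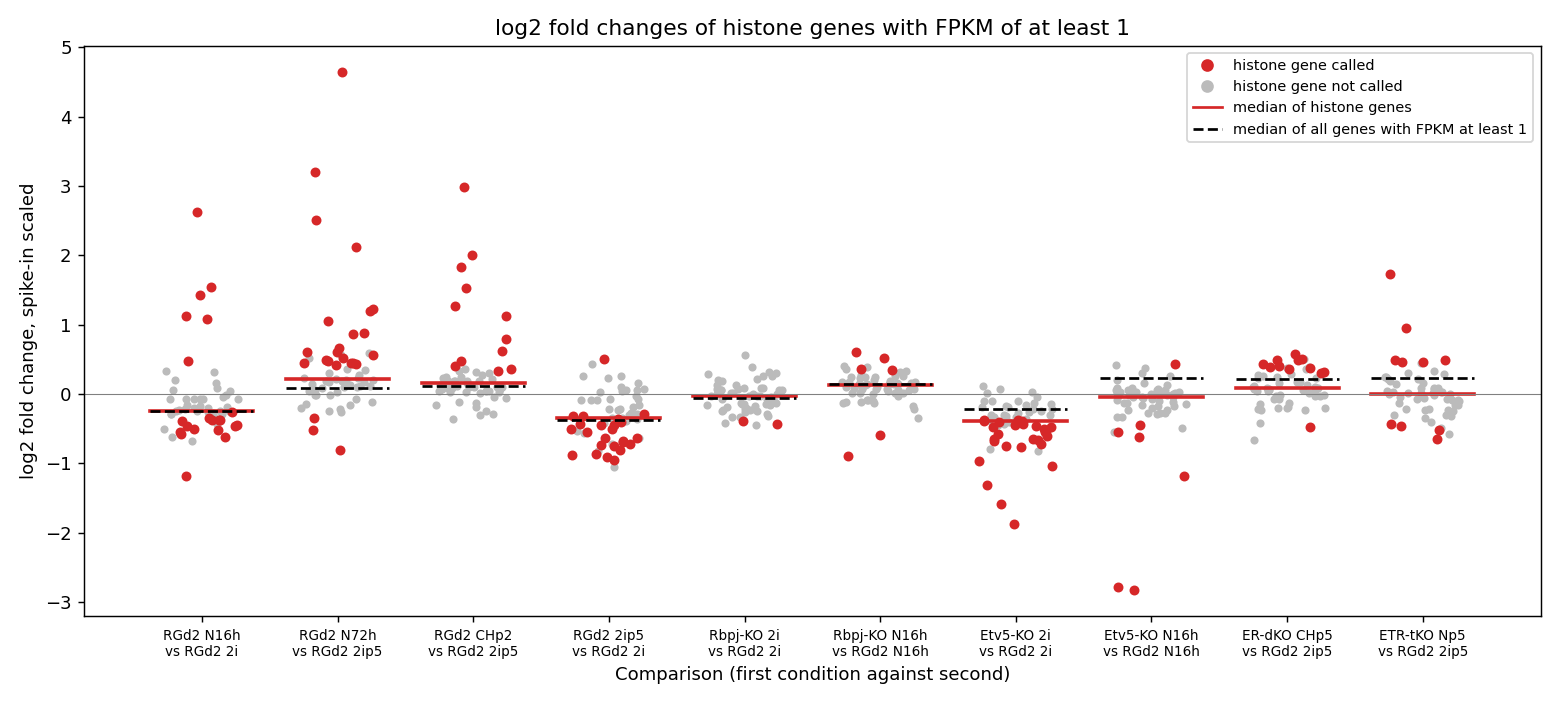
log2 fold changes (spike-in scale) of histone genes with a mean FPKM of at least 1 in 10 comparisons, with called genes in red, the median of histone genes as a red line and the median of all genes with FPKM of at least 1 as a dashed line. Most histone genes lie within 1 log2 unit of 0, and the points beyond 2 are Hist1h1t and Hist3h2ba among those that are higher and Hist1h2aa and Hist1h2ba among those that are lower, with Hist1h2ao and Hist3h2bb-ps also above 2 at N72h.

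The first comparison asked how histone transcripts changed within 16 h of 2i withdrawal in RGd2 cells. Of 60 histone genes with sufficient FPKM, 6 were higher (8.95% of all tested genes were called higher) and 15 lower (41% of all were called lower), and the median log2 fold change of histone genes (-0.24) equalled that of all genes (-0.24). The shares of histone genes called higher and lower were 10% and 25%. The higher genes were the testis variant genes Hist1h1t, Hist1h2aa and Hist1h2ba with Hist3h2ba, Hist2h3c2 and Hist1h2bf, and the lower genes included 6 of 11 H3 genes. For Hist1h2bf the libraries overlapped, and its call was lost with DESeq2 and both robust quasi-likelihood settings. Its call was also lost without RGd2 2i replicate 32 or 33, or without RGd2 N16h replicate 22 or 23. Hist1h1t (chr13:23695814-23696542), the testis linker histone, had normalized counts of 49.3, 25.2 and 24.2 in 2i and 237, 219 and 186 at N16h. All 3 N16h libraries exceeded all 2i libraries (2.62 ± 0.25 on the log2 scale, adjusted p = 2.04e-11). Hist3h2ba (chr11:58948920-58949533) rose from 96.7, 92.4 and 76.7 to 276, 284 and 239, again without overlap (1.54 ± 0.18 on the log2 scale, adjusted p = 3.43e-09). Hist1h2aa (chr13:23934462-23934851) rose from 108, 100.1 and 64.6 to 249, 315 and 222 (1.43 ± 0.18 on the log2 scale, adjusted p = 2.82e-08). Its divergent neighbour Hist1h2ba (chr13:23933773-23934156) rose from 43.9, 51.2 and 84.8 to 120.5, 106 and 116 (1.13 ± 0.22 on the log2 scale, adjusted p = 5.26e-05). Both groups were separate for each of these 4 genes, and they kept their calls under every alternative run. Among lower genes, the linker histone gene Hist1h1c fell from 19719, 13146 and 10995 to 9018, 10258 and 9511 (-0.62 ± 0.14 on the log2 scale, adjusted p = 4.74e-04). The H3 genes Hist1h3i and Hist1h3c also fell, by 0.58 and 0.46 on the log2 scale (adjusted p = 7.04e-05 and 0.00202). Some calls rested on 1 library: Hist1h2al changed from -1.19 to 0.33 without RGd2 2i replicate 33 (adjusted p = 0.337), Hist2h3c2 from 1.08 to 0.38 without RGd2 N16h replicate 23 (adjusted p = 0.405), and Hist1h3d from -0.54 to -0.22 without RGd2 2i replicate 31 (adjusted p = 0.388). The lower count was 9 without RGd2 N16h replicate 24 and 9 with clonal line as a block, while TMM scaling, which shifted the median of all genes by 0.22, gave 9 higher and 5 lower.

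The N72h libraries were compared with RGd2 cells kept in 2i for 5 passages. In this comparison 21 of 61 histone genes were higher (34.1% of all tested genes were called higher) and 3 lower (22.8% of all), with a median log2 fold change of 0.22 against 0.09 over all genes. By class, 9 of 15 H2B genes, 6 of 16 H2A genes, 4 of 6 H1 genes and 2 of 11 H3 genes were higher, but 0 of 13 H4 genes. The H2B count includes Hist3h2bb-ps, whose symbol marks a pseudogene, and the H2A count includes Hist1h2ao, whose call is limited below. Hist3h2ba had normalized counts of 56.6, 71 and 51.4 in 2ip5 and 1436, 1505 and 1521 at N72h, a 25-fold difference (4.64 ± 0.17 on the log2 scale, adjusted p = 9.55e-25). Hist1h1t rose from 23.6, 32.9 and 27.8 to 269, 261 and 264 (3.20 ± 0.28 on the log2 scale, adjusted p = 4.00e-13). The N72h libraries exceeded the 2ip5 libraries in each case. The linker histone gene Hist1h1e rose from 4310.1, 4813 and 4430.3 to 9719.6, 10998 and 10229.6 (1.19 ± 0.13 on the log2 scale, adjusted p = 1.36e-10). Hist1h1a, the most abundant linker histone transcript, fell from 16437, 18712 and 17779 to 12415, 12822 and 11594 (-0.52 ± 0.13 on the log2 scale, adjusted p = 6.78e-04), and Hist1h4a fell from 3690.3, 4794 and 4644 to 2706, 2578 and 2297 (-0.80 ± 0.19 on the log2 scale, adjusted p = 5.23e-04). Other higher genes, with log2 fold changes, were Hist3h2bb-ps (2.12), Hist1h2bf (1.23), Hist1h2br (1.06), Hist1h2aa (0.88), Hist1h2bl (0.87), Hist1h3d (0.67), Hist1h2bc (0.61), Hist2h3b (0.60), Hist1h2af (0.56), Hist1h1d (0.51), Hist2h2ab (0.49), Hist1h2ak (0.47), Hist1h2bg (0.45), Hist1h2ai (0.44), Hist1h2bp (0.44), Hist1h1b (0.43) and Hist2h2bb (0.42). The call of Hist1h2ao (2.51 ± 1.06) rested on RGd2 N72h replicate 8: without it the log2 fold change was 1.07 (adjusted p = 0.509). Only 6.5% of that gene's 50-base windows are unique to it. TMM scaling (shift of -0.14) gave 16 higher and 6 lower, and clonal line as a block gave 23 and 6. The result depends on the 2ip5 reference for some genes, and neither N72h nor CHp2 below was tested against RGd2 2i. Mean FPKM in RGd2 2i, 2ip5 and N72h was 470, 357 and 468 for Hist1h1b. It was 942, 730 and 979 for Hist1h2ak, so N72h was near the 2i level for both genes. For Hist1h1e (323, 264 and 582) and Hist1h1t (1.56, 1.67 and 15.4) the N72h mean was above both references.

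CHIRON without the MEK inhibitor was compared with 2i in RGd2 cells. Against RGd2 2ip5, 12 of 57 histone genes were higher in RGd2 CHp2 (27.3% of all tested genes) and 0 were lower (13% of all). At an unadjusted p under 0.05, 2 genes were lower, and DESeq2 also called 0 lower. Hist3h2ba had normalized counts of 470.1, 396 and 560.5 in CHp2, above all 2ip5 libraries (2.98 ± 0.21 on the log2 scale, adjusted p = 2.15e-15). Hist1h1t had 106, 118 and 121 (2.01 ± 0.35 on the log2 scale, adjusted p = 1.15e-05), and Hist1h2aa had 196, 160.2 and 202 against 58.9, 47.3 and 51.4 in 2ip5 (1.82 ± 0.27 on the log2 scale, adjusted p = 3.52e-07). Hist1h2ba rose from 23.6, 36.8 and 23.6 to 83, 82.6 and 78.5 (1.52 ± 0.33 on the log2 scale, adjusted p = 2.20e-04). Hist1h1e rose from 4310.1, 4813 and 4430.3 to 11519, 9693 and 11496 (1.27 ± 0.13 on the log2 scale, adjusted p = 6.70e-11), and the libraries did not overlap. Other higher genes, with log2 fold changes, were Hist1h2br (1.13), Hist1h2bf (0.79), Hist1h3d (0.61), Hist1h2bl (0.48), Hist2h2bb (0.40), Hist1h3e (0.35) and Hist1h1d (0.33). Fitting only the libraries compared gave 20 higher and 3 lower, clonal line as a block gave 19 and 3, and TMM scaling (shift of -0.18) gave 10 and 3. The lower count was 1 without RGd2 2ip5 replicate 1 and 1 without RGd2 CHp2 replicate 4.

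**Figure D4:**
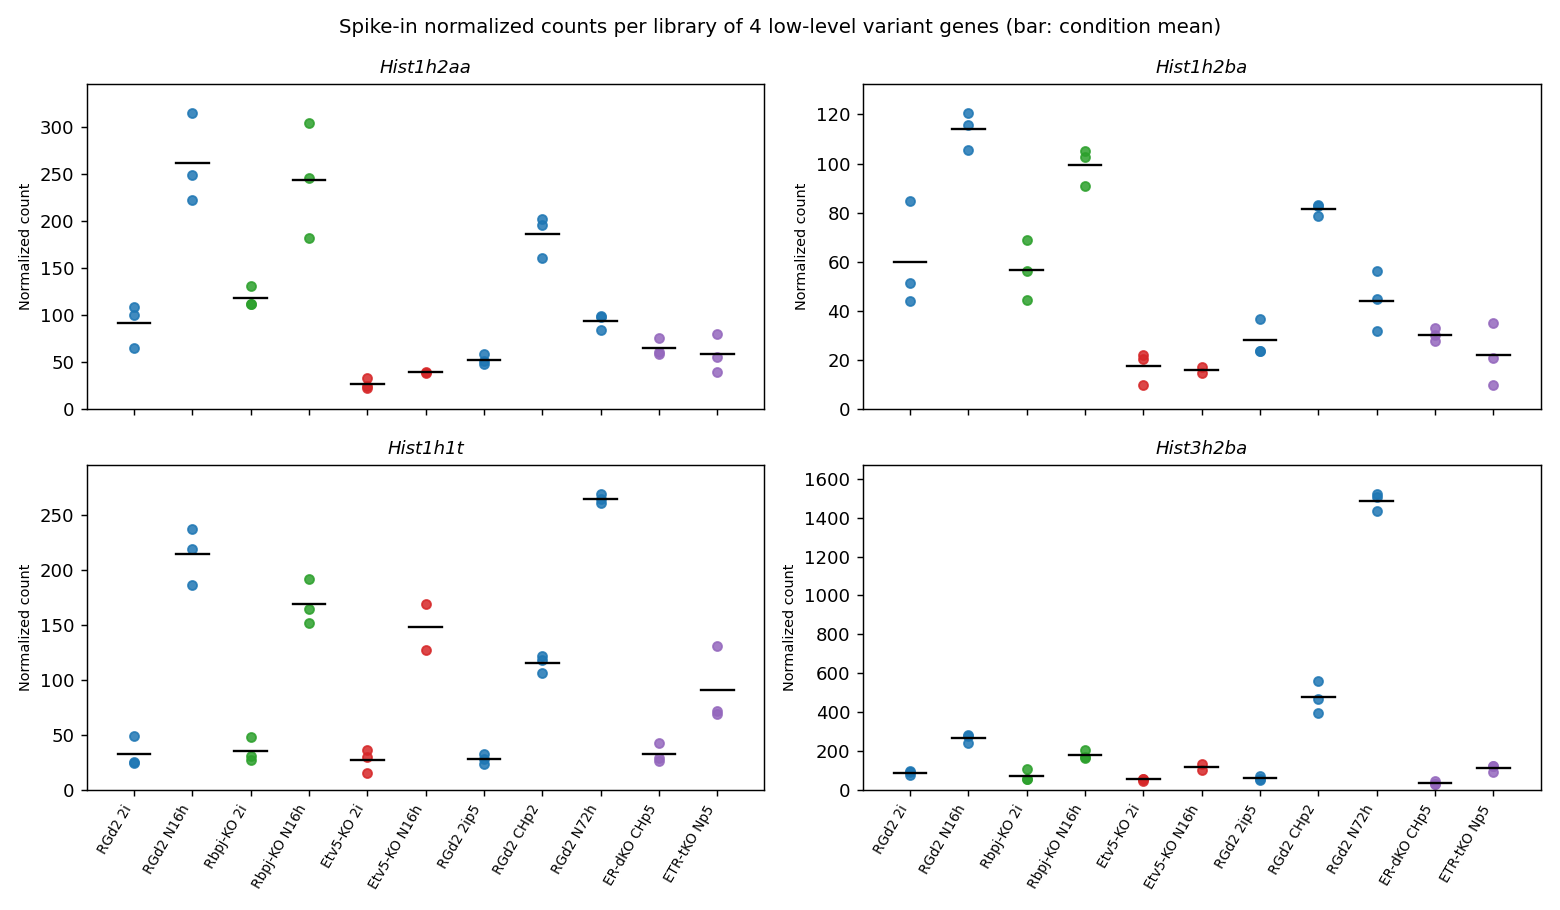
Spike-in normalized counts of Hist1h2aa, Hist1h2ba, Hist1h1t and Hist3h2ba in each library (points, with RGd2 in blue, Rbpj-KO in green, Etv5-KO in red and the multiple mutants in purple) and the condition mean (bar), with axes starting at 0. Hist3h2ba stands highest at N72h (1436 to 1521), and the Etv5-KO points lie lowest for Hist1h2aa at N16h (38.7 and 38.9 against 222 to 315 in RGd2).

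Short and prolonged 2i culture were compared directly because each is a reference above. Given the routine culture in CHIRON with LIF, the groups may differ in earlier medium as well as in time in 2i. The part of each was not tested. In RGd2 2ip5 relative to RGd2 2i, 1 histone gene was higher (2.96% of all tested genes were called higher) and 23 of 60 were lower (53.3% of all), with a median of -0.35 against -0.37 over all genes. The one higher gene was Hist1h4n (3132, 3044 and 2349.9 to 3504, 4329 and 4454, 0.51 ± 0.15 on the log2 scale, adjusted p = 0.00543). Hist1h2aa was lower in 2ip5 (-0.95 ± 0.28 on the log2 scale, adjusted p = 0.00687) but lost its call with TMM scaling, which shifted the median of all genes by 0.36 and gave 8 higher and 6 lower. Hist1h2bf, an H2B gene, fell from 5275, 3626 and 2338 to 2173, 2136 and 1905 (-0.91 ± 0.19 on the log2 scale, adjusted p = 2.16e-04). The lower count was 12 without RGd2 2i replicate 31 and 14 with clonal line as a block, and the higher count was 6 without RGd2 2i replicate 33 and 2 without RGd2 2ip5 replicate 1.

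In Etv5-KO cells the divergent pair of testis variant genes was lower than in RGd2 cells. In 2i, 0 of 60 histone genes were higher than in RGd2 (6.41% of all tested genes; 0 at an unadjusted p under 0.05 and 0 by DESeq2) and 27 were lower (33.5% of all), with a median of -0.38 against -0.22 over all genes. Hist1h2aa had normalized counts of 24.4, 22.8 and 32.8 against 108, 100.1 and 64.6 in RGd2, with no overlap (-1.88 ± 0.28 on the log2 scale, adjusted p = 8.53e-07). Hist1h2ba had 9.8, 22 and 20.2 against 43.9, 51.2 and 84.8, also with no overlap (-1.58 ± 0.32 on the log2 scale, adjusted p = 1.52e-04). Both kept their calls under every alternative run. Hist1h3d fell from 7423, 5352 and 3028 to 2504, 2923 and 2464 (-1.04 ± 0.18 on the log2 scale, adjusted p = 1.52e-05), and the value was -0.72 without RGd2 2i replicate 31 (adjusted p = 0.00332). Hist3h2ba fell from 96.7, 92.4 and 76.7 to 58.5, 45.6 and 57.4 (-0.77 ± 0.24 on the log2 scale, adjusted p = 0.011), a call lost with TMM scaling. Other lower genes, with log2 fold changes, were Hist1h2bf (-0.97), Hist1h2bl (-0.75), Hist1h4j (-0.72), Hist1h2an (-0.68), Hist1h2be (-0.66), Hist2h3b (-0.65), Hist1h3i (-0.64), Hist1h2af (-0.60), Hist1h4i (-0.57), Hist1h2ak (-0.55), Hist2h2bb (-0.54), Hist1h2bp (-0.51), Hist1h2ad (-0.48), Hist1h1e (-0.47), Hist1h1b (-0.47), Hist2h4 (-0.45), Hist1h3h (-0.43), Hist1h2ab (-0.41), Hist1h3f (-0.39), Hist1h2ac (-0.39), Hist1h3g (-0.38) and Hist1h2ae (-0.38). Of 5 other RNAs without a poly(A) tail, 0 were higher and 3 lower, with a median of -1.46. Rpph1 had 1314, 1480.5 and 15456 normalized counts in RGd2 and 1378, 1669 and 2685 in Etv5-KO, and was not called without RGd2 2i replicate 33 (0.46, adjusted p = 0.254), while Terc, the telomerase RNA, had 476, 322 and 1603 and 207, 198 and 245 and stayed called without it (-0.86, adjusted p = 0.00845). The part of these RNAs in the histone result was not tested. The medians by class were -0.40 (H2A), -0.52 (H2B), -0.39 (H3), -0.33 (H4) and -0.29 (H1). With TMM scaling, which shifted the median of all genes by 0.24, 1 gene was higher, 12 were lower and the histone median was -0.19. Hist1h2al lost its call without RGd2 2i replicate 33 (from -1.31 to 0.21, adjusted p = 0.578), and 1 gene was higher without RGd2 2i replicate 31.

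At N16h the same pair was again lower in Etv5-KO than in RGd2 cells, and few other histone genes were called. Of 59 histone genes, 1 was higher (33.3% of all tested genes were called higher) and 6 were lower (4.06% of all), with a median of -0.05 against 0.23 over all genes. Hist1h2aa had 38.9 and 38.7 normalized counts against 249, 315 and 222 in RGd2 (-2.78 ± 0.23 on the log2 scale, adjusted p = 7.82e-13), a 6.88-fold difference. Hist1h2ba had 14.5 and 16.9 against 120.5, 106 and 116 (-2.83 ± 0.29 on the log2 scale, adjusted p = 2.65e-10), a 7.13-fold difference. Hist3h2ba had 104 and 131 against 276, 284 and 239 (-1.19 ± 0.18 on the log2 scale, adjusted p = 9.62e-07). The 3 genes were lower in both Etv5-KO libraries than in each RGd2 library, and their calls held under every alternative run. Hist1h1t was lower by a smaller margin (127 and 169 against 237, 219 and 186, -0.54 ± 0.19 on the log2 scale, adjusted p = 0.0247), and DESeq2 did not call it. The gene called higher was Hist1h1c, with a mean normalized count of 12882 against 9596 in RGd2. Hist2h2bb was also among the lower genes (mean FPKM of 182 against 287). With TMM scaling (shift of -0.23 in the median of all genes) 0 genes were higher, 18 were lower and the histone median was -0.27. Fitting only the libraries compared gave 2 higher and 11 lower. The higher count was 0 without RGd2 N16h replicate 22 or 24 or Etv5-KO N16h replicate 18, and 2 without RGd2 N16h replicate 23.

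Whether the 16 h change itself differed between Etv5-KO and RGd2 cells was tested as an interaction, and 6 of 60 histone genes responded more positively (45.5% of all tested genes) and 1 more negatively (0.621% of all). The median interaction was 0.36 over histone genes against 0.45 over all genes. Hist1h2ba was the gene that responded more negatively (-1.25 ± 0.48 on the log2 scale, adjusted p = 0.0394): the ratio of its mean at N16h to its mean in 2i was 1.9 in RGd2 and 0.906 in Etv5-KO. For Hist1h2aa the ratios were 2.88 and 1.46, and the difference did not pass the threshold (-0.91 ± 0.39 on the log2 scale, adjusted p = 0.0681). Hist1h2bf responded more positively (0.90 ± 0.26 on the log2 scale, adjusted p = 0.00788), with ratios of 1.43 in RGd2 and 2.58 in Etv5-KO. Its call was lost without RGd2 2i replicate 31 (0.57), without Etv5-KO N16h replicate 18 and with TMM scaling (0.43). For Hist1h1t the ratios were 6.51 in RGd2 and 5.48 in Etv5-KO, with an interaction interval from -0.96 to 0.70. TMM scaling shifted the median of all genes by -0.47 in this interaction and left 0 genes responding more positively and 5 more negatively. Without RGd2 2i replicate 31 the count was 4, of which 1 (Hist1h3c) was among the 6, and with clonal line as a block it was 6, of which 2 (Hist1h2bf and Hist1h3d) were among them. The count responding more positively was 10 without RGd2 2i replicate 32, 16 without 33, 10 without RGd2 N16h replicate 23, 2 without 24, 13 without Etv5-KO 2i replicate 25, 3 without 27, and 1 without Etv5-KO N16h replicate 18. The call of Hist1h2ba was lost with DESeq2, both older quasi-likelihood settings, no filter on low counts, a fit of only the libraries compared, and without any of RGd2 2i replicate 31 or 32, RGd2 N16h replicate 22 or 24, Etv5-KO 2i replicate 26 or 27, or either Etv5-KO N16h library.

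In Rbpj-KO cells few histone genes were called. In 2i, 0 of 60 histone genes were higher (5.47% of all tested genes; 3 at an unadjusted p under 0.05 and 0 by DESeq2) and 2 were lower (7.44% of all), and the histone median was -0.04 against -0.06 over all genes. The lower genes were Hist1h2an (759.6, 683 and 757 against 1012, 904 and 1090.2 in RGd2, -0.43 ± 0.13 on the log2 scale, adjusted p = 0.0251) and Hist1h2bl (3524, 3773 and 3465 against 5481, 4426 and 4014, -0.38 ± 0.12 on the log2 scale, adjusted p = 0.0214), and fitting only the libraries compared left 0 lower. Hist1h2aa had 112, 112 and 131 in Rbpj-KO 2i, each above the 3 RGd2 values, but the difference did not pass the test (0.27 ± 0.22 on the log2 scale, adjusted p = 0.524). The higher count was 1 without RGd2 2i replicate 31 and 6 without replicate 33, and the lower count was 0 without replicate 31, 8 without replicate 33 and 1 without Rbpj-KO replicate 28, 29 or 30.

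At N16h, 4 of 59 histone genes were higher in Rbpj-KO (20.4% of all tested genes) and 2 lower (3.83% of all), with medians of 0.13 and 0.14. The linker histone genes Hist1h1e (8677, 8329.8 and 9016 against 5743, 5816 and 5635 in RGd2, 0.60 ± 0.12 on the log2 scale, adjusted p = 3.27e-04) and Hist1h1c (13648, 12713 and 14845 against 9018, 10258 and 9511, 0.52 ± 0.14 on the log2 scale, adjusted p = 0.00638) were higher with no overlap. Hist3h2ba was lower (166, 168 and 206 against 276, 284 and 239, -0.59 ± 0.16 on the log2 scale, adjusted p = 0.00584). Hist1h2aa and Hist1h2ba, which separated Etv5-KO from RGd2, had 246, 182 and 305 and 105, 102 and 90.9 in Rbpj-KO, and neither was called (-0.13 ± 0.15 and -0.18 ± 0.19). The interaction with the 16 h change called 0 histone genes in either direction (4.6% and 0.189% of all tested genes), with 8 and 1 at an unadjusted p under 0.05 and 0 by DESeq2, and the count responding more positively was 2 without RGd2 2i replicate 32 and 8 without replicate 33. The lower call of Hist2h3c2 was lost without RGd2 N16h replicate 23 (from -0.89 to -0.19, adjusted p = 0.779). TMM scaling (shift of -0.14) gave 2 higher and 3 lower. The higher count was 13 with only the libraries compared, and 2 without RGd2 N16h replicate 22 or 24 or Rbpj-KO replicate 19 or 21. The lower count was 0 without Rbpj-KO replicate 19 and 1 without Rbpj-KO replicate 20 or 21 or RGd2 N16h replicate 23.

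**Figure D5:**
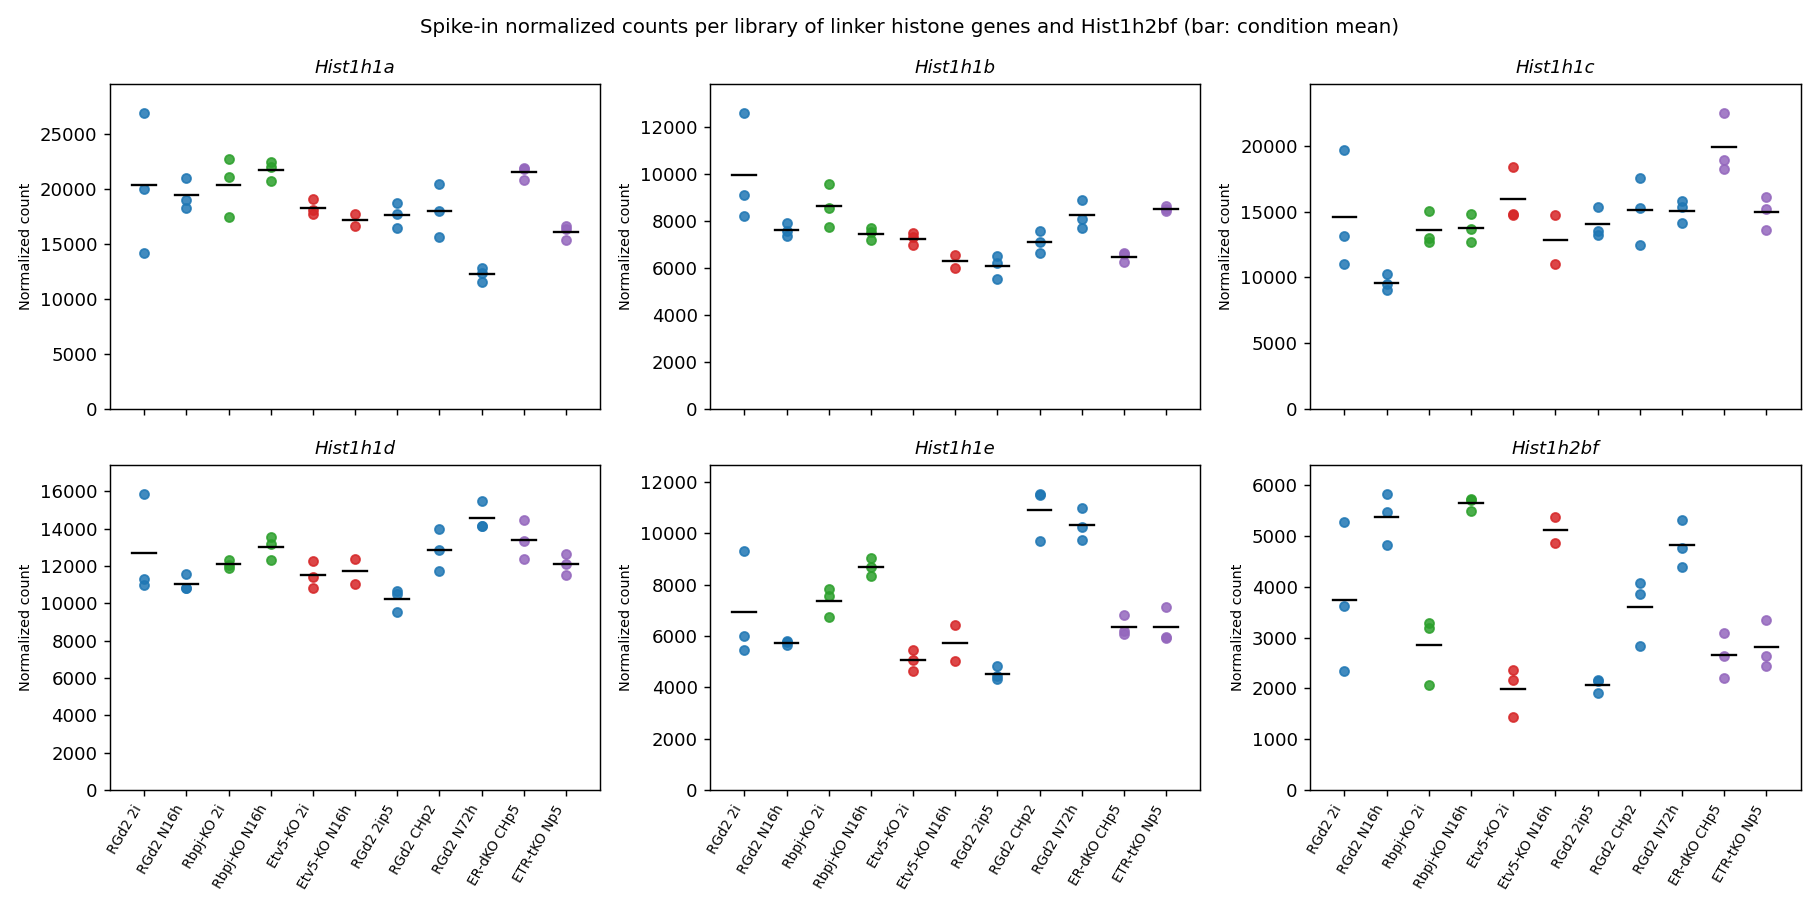
Spike-in normalized counts of 5 linker histone genes and the H2B gene Hist1h2bf in each library (points, coloured by genotype) and the condition mean (bar), with axes starting at 0. Hist1h1e is highest in RGd2 CHp2 and N72h (9693 to 11519), Hist1h1a is lowest at N72h (11594 to 12822), and RGd2 2i replicate 31 is above replicates 32 and 33 in each panel.

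The multiple mutants were compared with RGd2 2ip5, which differs from them in medium as well as genotype. These comparisons cannot tell the 2 factors apart. RGd2 CHp2 shares the CHIRON medium of ER-dKO CHp5 at an earlier passage, and that pair was not tested. Mean FPKM in RGd2 CHp2 and ER-dKO CHp5 was 31.0 and 2.13 for Hist3h2ba, 582 and 311 for Hist1h1e, and 385 and 467 for Hist1h1c. In ER-dKO CHp5, 11 of 57 histone genes were higher (35% of all tested genes) and 1 was lower (8.87% of all), with a median of 0.09 against 0.21 over all genes. Linker histone genes made up 3 of the 11: Hist1h1c (22488, 18234 and 18937 against 13498, 15386 and 13236, 0.50 ± 0.14 on the log2 scale, adjusted p = 0.00476), Hist1h1e (0.49 ± 0.13 on the log2 scale, adjusted p = 0.00213) and Hist1h1d (0.39 ± 0.11 on the log2 scale, adjusted p = 0.00355). Other higher genes, with log2 fold changes, were Hist1h2bb (0.58), Hist1h2ai (0.49), Hist2h2bb (0.43), Hist1h2bl (0.41), Hist1h2ag (0.37), Hist1h2ak (0.36), Hist1h2ah (0.32) and Hist1h2bg (0.31). Hist1h1t had 26.1, 43 and 29.2, overlapping the 2ip5 values, and was not called (0.28 ± 0.38). The divergent pair that was lower in Etv5-KO cells was not called in ER-dKO CHp5, which also lacks Etv5, against 2ip5. Hist1h2aa had a mean of 6.11 FPKM against 5.91 in 2ip5, and Hist1h2ba had 2.88 FPKM against 3.17. In RGd2 CHp2, which shares the CHIRON medium, their means were higher, at 19.0 and 8.47 FPKM, a difference that was not tested. Hist3h2ba had 32.8, 43.4 and 30.8 against 56.6, 71 and 51.4, lower in each library, and missed the threshold (-0.67 ± 0.29 on the log2 scale, adjusted p = 0.0661). The higher count was 11 without the library labelled ER-dKO CHp5 replicate 12, 5 without RGd2 2ip5 replicate 1 or 3, 6 without ER-dKO replicate 10 and 4 with TMM scaling (shift of -0.20), which also gave 6 lower. The lower count was 0 without RGd2 2ip5 replicate 2 or 3 or ER-dKO replicate 10.

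In ETR-tKO Np5, 6 of 57 histone genes were higher (38% of all tested genes) and 4 lower (10% of all), with a median of -0.01 against 0.22 over all genes. Hist1h1t had 131, 68.8 and 71.6 against 23.6, 32.9 and 27.8 in 2ip5 (1.72 ± 0.33 on the log2 scale, adjusted p = 4.28e-05), and Hist3h2ba had 121, 91.4 and 125 against 56.6, 71 and 51.4 (0.95 ± 0.24 on the log2 scale, adjusted p = 0.00177). All ETR-tKO libraries lay above all 2ip5 libraries for both genes. Hist1h2aa had 80.1, 54.8 and 39 and was not called (0.22 ± 0.29). Hist1h2ba had a mean of 2.16 FPKM against 3.17 in 2ip5 and was not called either. The lower genes included the H4 genes Hist1h4f (-0.65 ± 0.21 on the log2 scale, adjusted p = 0.0103) and Hist1h4n (-0.52 ± 0.14 on the log2 scale, adjusted p = 0.00332), and 3 of 12 H4 genes were lower against 0 of 15 H2A genes. Other higher genes, with log2 fold changes, were Hist1h1e (0.49), Hist1h1b (0.48), Hist2h2bb (0.46) and Hist1h2bl (0.46). With TMM scaling (shift of -0.24) 6 genes were higher, 19 were lower and the median was -0.24. The lower count was 2 without RGd2 2ip5 replicate 2, 8 without ETR-tKO replicate 13 and 1 without replicate 15. RGd2 N16h and N72h share the N2B27 medium of ETR-tKO Np5 at earlier times, and those pairs were not tested. Mean FPKM in RGd2 N16h, RGd2 N72h and ETR-tKO Np5 was 27.5, 10.2 and 5.61 for Hist1h2aa. It was 12.2, 4.84 and 2.16 for Hist1h2ba, 12.03, 15.4 and 4.7 for Hist1h1t, and 17.8, 102 and 6.86 for Hist3h2ba. The ETR-tKO mean was the lowest for each of these genes, but not for Hist1h1e (314, 582 and 317).

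Genes that act on histone mRNA were described beside the members. Of all tested genes, 8.95% were called higher and 41% lower at N16h, and 34.1% higher and 22.8% lower at N72h. The shares higher and lower were 27.3% and 13% in CHp2, and 6.41% and 33.5% in Etv5-KO 2i. Slbp, which encodes the stem-loop binding protein, was called in 2 comparisons, higher in ER-dKO CHp5 (0.27 ± 0.10 on the log2 scale, adjusted p = 0.0359) and lower in RGd2 2ip5 relative to 2i (-0.51 ± 0.10 on the log2 scale, adjusted p = 2.02e-04). Npat was called in none of the 12 comparisons. The 14 genes of 3′ end processing had 2 higher and 5 lower at N16h, and 3 higher and 2 lower at N72h. Mif4gd, which encodes a partner of SLBP in histone mRNA translation, fell at N16h (-0.76 ± 0.12 on the log2 scale, adjusted p = 8.37e-07) and at N72h (-1.57 ± 0.13 on the log2 scale, adjusted p = 9.22e-14). Of 13 genes of histone mRNA decay, 0 were higher and 5 lower at N16h, 1 higher and 1 lower at N72h, and 0 higher and 5 lower in Etv5-KO 2i. Of 27 S phase genes, 1 was higher and 4 lower at N16h (median log2 fold change -0.14; 41% of all genes were called lower), 3 higher and 18 lower at N72h (-0.42; 22.8% lower), and 2 higher and 14 lower in CHp2 (-0.28; 13% lower). The list had 0 higher and 13 lower in Etv5-KO 2i (-0.24; 33.5% of all genes lower) and 0 higher and 26 lower in RGd2 2ip5 against 2i (-0.53; 53.3% lower). It had 17 higher and 0 lower in ER-dKO CHp5 (0.35; 35% of all genes higher) and 16 higher and 1 lower in ETR-tKO Np5 (0.31; 38% higher). Of 11 replication-independent histone genes tested, 0 were higher and 5 lower at N16h, and 4 higher and 1 lower at N72h. Among them, H2afy fell at N16h (-1.65 ± 0.11 on the log2 scale, adjusted p = 3.02e-16) and H1f0, the linker histone of differentiated and quiescent cells, rose at N72h (0.93 ± 0.13 on the log2 scale, adjusted p = 5.43e-08). Among 6 genes of spermatogenesis, 4 were not tested and Sycp3 and Ddx4 were measured, with log2 fold changes of 1.003 and 0.64 at N16h, 3.08 and 1.68 at N72h, 1.08 and 1.28 in CHp2, and -0.73 and -1.05 in Etv5-KO 2i, all 8 called. In ER-dKO CHp5, where neither Hist1h1t nor Hist3h2ba was called, both were lower (-0.91 and -1.44), and in Etv5-KO N16h Sycp3 was lower (-0.83) while Ddx4 was not called (-0.31). In ETR-tKO Np5, where Hist1h1t and Hist3h2ba were higher than in RGd2 2ip5, neither Sycp3 nor Ddx4 was called (0.45 and -0.38). Of 3 trophectoderm markers tested, 2 were higher and 1 lower at N72h and 3 were higher in CHp2. Of 4 neural markers, 2 were higher and 2 lower at N16h. The part of these lists in the histone results was not tested.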

How the data were processed

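Total RNA depleted of ribosomal RNA was sequenced as strand-specific paired-end libraries. Per the methods, alignment to GRCm38/mm10 plus ERCC sequences used TopHat2 guided by GENCODE M14, after adapter removal by Trim Galore. The authors deposited featureCounts counts of uniquely matched reads per gene. Tool versions are not given in the sources used here. One label names polyA RNA, against the protocol. Reads shared by near-identical histone genes were dropped at counting, which lowers and can distort the levels of such copies.

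Counts were scaled by median-of-ratios factors from 52 of 92 spike-ins and tested with edgeR 4.0.16 (R 4.3.3; quasi-likelihood, two-sided, Benjamini-Hochberg over 18892 genes) in 1 model of all 32 libraries. FPKM was computed from the counts. The script was tested on simulated data with 200 changed genes. Alternatives were TMM scaling, DESeq2 1.42.0, no filters, only the libraries compared, clonal line as a block, and leaving out each library. The newer of edgeR's quasi-likelihood methods was chosen after the results of 4 settings of this option had been seen, because its counts over all genes matched those of an earlier analysis of these data, and the other 3 settings are given as alternatives. Members and gene lists were chosen with earlier results of these data known. Genes named were the called genes with the largest changes and separate libraries, the 10 with the highest FPKM, linker and testis histone genes, and Slbp and Npat. The other called histone genes, genes whose call rested on 1 library, and Mif4gd, H1f0, H2afy, Sycp3 and Ddx4 were named after their values were seen. Groups followed the sample labels, which differ from the methods in which N16h group has 2 libraries. Identifiers without a symbol (193, holding 0.0259% of counts) were not assigned. Promoters came from RefSeq (GRCm38.p6) and transcripts from GENCODE M21. Hist1h2bm and Hist1h2bh were not analysed here.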

Additional observations from a re-analysis of the deposited data

Results flagged for a closer look

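The 16 h change after 2i withdrawal differed between Etv5-KO and RGd2 cells for 7 of 60 histone genes, by the edgeR interaction test, 6 more positively (10% of histone genes against 45.5% of all tested genes) and 1 more negatively (0.621% of all). The difference was -1.2506 on the log2 scale for Hist1h2ba, the testis H2B variant gene, whose ratio of N16h to 2i means was 1.90 in RGd2 and 0.906 in Etv5-KO cells. The other 6 responded more positively in Etv5-KO cells, where the median interaction was 0.36 over histone genes and 0.45 over all genes. The differences were 0.8978 for the H2B gene Hist1h2bf, 0.8638 for the H3 gene Hist1h3d and 0.595 for the H2A gene Hist1h2af. They were 0.5837 for the H3 gene Hist1h3c, 0.4696 for the H2B gene Hist1h2bl and 0.4689 for the linker histone gene Hist1h1e. With TMM scaling, which shifted the median of all genes by -0.47, none of these 6 was called, at 0.43 for Hist1h2bf, 0.38 for Hist1h3d, 0.13 for Hist1h2af, 0.15 for Hist1h3c, 0.03 for Hist1h2bl and -0.0004 for Hist1h1e. Without RGd2 2i replicate 31, which had the highest summed histone level on the spike-in scale, Hist1h2bf (0.57), Hist1h3d (0.54), Hist1h2af (0.33), Hist1h2bl (0.33) and Hist1h1e (0.19) lost their calls and Hist1h3c kept it (0.51, edgeR adjusted p = 0.0462). With clonal line as a block, Hist1h2bf and Hist1h3d kept their calls and the other 4 lost them. Hist1h2ba kept its call with TMM scaling (-1.74, edgeR adjusted p = 0.0202) and with the block. It lost the call with DESeq2, both older quasi-likelihood settings, no filter on low counts and a fit of only the libraries compared, and when any of 8 of the 11 libraries was left out. The part of single libraries and of the scaling in these differences was not tested further.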

How the results depend on the processing

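Across 204 counts of called histone genes recomputed under other settings, 50 moved by over 1.5 times, as did 51 of 164 that left out a library. Counts of called histone genes moved by over 1.5 times under some settings, and the cause was not tested unless the setting itself changes the scale or the libraries used. With TMM scaling there were 5 lower in RGd2 N16h against 2i, 6 lower in N72h against 2ip5, 3 lower in CHp2 against 2ip5, 2 higher in Rbpj-KO N16h, 1 higher in Etv5-KO 2i, 12 lower in Etv5-KO 2i, 0 higher in Etv5-KO N16h, 18 lower in Etv5-KO N16h, 4 higher in ER-dKO CHp5, 6 lower in ER-dKO CHp5, 19 lower in ETR-tKO Np5, 8 higher in RGd2 2ip5 against 2i, 6 lower in RGd2 2ip5 against 2i, 0 higher in the Etv5-KO interaction and 5 lower in the Etv5-KO interaction. With no filter on low counts there were 23 lower in RGd2 N16h against 2i, 2 lower in CHp2 against 2ip5, 1 higher in Rbpj-KO 2i, 5 lower in Rbpj-KO 2i, 2 lower in ER-dKO CHp5, 10 lower in ETR-tKO Np5, 5 higher in the Rbpj-KO interaction, 11 higher in the Etv5-KO interaction and 0 lower in the Etv5-KO interaction. With a fit of only the libraries compared there were 9 lower in RGd2 N16h against 2i, 6 lower in N72h against 2ip5, 20 higher in CHp2 against 2ip5, 3 lower in CHp2 against 2ip5, 0 lower in Rbpj-KO 2i, 13 higher in Rbpj-KO N16h, 1 lower in Rbpj-KO N16h, 2 higher in Etv5-KO N16h, 11 lower in Etv5-KO N16h, 18 higher in ER-dKO CHp5, 7 lower in ER-dKO CHp5, 10 higher in ETR-tKO Np5, 11 lower in ETR-tKO Np5, 3 higher in the Etv5-KO interaction and 0 lower in the Etv5-KO interaction. With clonal line as a replicate block there were 9 lower in RGd2 N16h against 2i, 6 lower in N72h against 2ip5, 19 higher in CHp2 against 2ip5, 3 lower in CHp2 against 2ip5 and 14 lower in RGd2 2ip5 against 2i. With the older quasi-likelihood method there was 1 lower in Rbpj-KO N16h. With the older method with robust estimation there was 1 lower in Rbpj-KO N16h, 2 lower in ETR-tKO Np5 and 2 higher in the Etv5-KO interaction. With robust estimation there were 2 lower in ETR-tKO Np5. With DESeq2 there was 1 lower in Rbpj-KO N16h. Leaving out each library in turn gave 4 to 8 higher and 9 to 22 lower in RGd2 N16h against 2i, 16 to 21 higher and 2 to 4 lower in N72h against 2ip5, 9 to 16 higher and 0 to 1 lower in CHp2 against 2ip5, 0 to 6 higher and 0 to 8 lower in Rbpj-KO 2i, 2 to 4 higher and 0 to 2 lower in Rbpj-KO N16h, 0 to 1 higher and 19 to 32 lower in Etv5-KO 2i. It gave 0 to 2 higher and 5 to 9 lower in Etv5-KO N16h, 5 to 11 higher and 0 to 1 lower in ER-dKO CHp5, 6 to 7 higher and 1 to 8 lower in ETR-tKO Np5, 1 to 6 higher and 12 to 26 lower in RGd2 2ip5 against 2i, 0 to 8 higher and 0 lower in the Rbpj-KO interaction, 1 to 16 higher and 0 to 1 lower in the Etv5-KO interaction. With TMM scaling the sign turned for Slbp in RGd2 N16h against 2i (0.0147), Npat in CHp2 against 2ip5 (-0.0542), Npat in Rbpj-KO 2i (0.0534), Npat in Etv5-KO 2i (0.1691), Slbp in Etv5-KO 2i (0.0301), Npat in Etv5-KO N16h (-0.025), Slbp in ETR-tKO Np5 (-0.1233), Hist1h1d in RGd2 2ip5 against 2i (0.0228), Hist1h2bg in RGd2 2ip5 against 2i (0.0162), Npat in RGd2 2ip5 against 2i (0.1295), Slbp in the Rbpj-KO interaction (-0.0009), Hist1h1e in the Etv5-KO interaction (-0.0004), Npat in the Etv5-KO interaction (-0.1941) and Slbp in the Etv5-KO interaction (-0.2678). With the older quasi-likelihood method the sign turned for Npat in Rbpj-KO 2i (0.0082). With the older method with robust estimation the sign turned for Npat in Rbpj-KO 2i (0.0082). With DESeq2 the sign turned for Npat in Rbpj-KO 2i (0.0112). With single libraries left out in turn, log2 fold changes that turned sign ranged for Slbp in CHp2 against 2ip5 from -0.0621 to 0.0067, Npat in Rbpj-KO 2i from -0.2206 to 0.1855, Slbp in Rbpj-KO N16h from -0.0559 to 0.0142, Npat in Etv5-KO 2i from -0.2614 to 0.1456, Slbp in Etv5-KO N16h from -0.0884 to 0.0754, Npat in ETR-tKO Np5 from -0.1097 to 0.0275. The summed histone level as CPM, averaged over the 11 conditions, was 9476 (SD 574 between replicates), 8628 without Hist1h4d, 9498 with the total set by spike-ins, and 9436 to 9518 over fits that each lacked 1 library. Over 153 pairs of a named gene and a comparison and 2298 recomputed values, 2007 kept their direction and side of the threshold, 248 lost the call, 18 gained one and 25 turned sign. Replicate numbers are not shared between conditions, so libraries could be paired only by clonal line: correlations of deviations between RGd2 N16h and RGd2 2i ran from 0.0724 to 0.1773 within a line and from -0.1593 to -0.1008 between lines, and in the other pairs of conditions from -0.0644 to 0.1092. Deviations from a condition mean cancel within the condition, so the signs within and between lines are tied and are not separate evidence of a line effect. The settings of the quasi-likelihood method were added after seeing the data. Depth limits the low-level genes most, since RGd2 2i replicate 33 held 5986857 gene counts against a median of 29940141.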
